A study of Mus musculus with 6 samples.

Results

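The immunoproteasome and class I antigen processing genes examined here are 10 genes of the path by which a cell cuts its own proteins into peptides and shows them on its surface. They were chosen by gene function, with their values in this same comparison of counts already known, and consist of the inducible proteasome subunits Psmb8, Psmb9 and Psmb10, the peptide loading genes Tap1, Tap2 and Tapbp, the class I molecule genes B2m, H2-K1 and H2-D1, and Nlrc5. All 10 were found by symbol among the 43629 gene identifiers of the count table, and all 10 were among the 16829 genes with enough counts to be tested. RNA was sequenced from epidermal keratinocytes of 3 control mice and 3 Dnmt1Δ/Δep mice, taken at P3 and kept in culture for 5 days. All 6 libraries came from female mice of a mixed C57BL/6J and 129SV background. Dnmt1Δ/Δep stands for deletion of Dnmt1, the maintenance DNA methyltransferase, by a Cre recombinase that the keratin 5 promoter drives in the basal epidermis and its descendants. Control mice carried floxed Dnmt1 in the homozygous or heterozygous state, and which library had which genotype is not given in the sources used here. The labels name no treatment of either group.

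The proteasome degrades cytosolic proteins, and its core carries 3 catalytic subunits, Psmb5, Psmb6 and Psmb7, in most cells. Interferon-responsive cells replace them with Psmb8, Psmb9 and Psmb10, and the resulting immunoproteasome favours peptides that suit class I molecules. Tap1 and Tap2 form the transporter that moves peptides into the endoplasmic reticulum, where tapasin, encoded by Tapbp, holds the class I molecule beside the transporter. A class I molecule consists of a heavy chain, such as H2-K or H2-D, and the invariant light chain beta-2-microglobulin. Nlrc5 is the transactivator of class I genes and acts at their promoters through DNA-bound factors of the RFX, CREB and NF-Y families. Keratinocytes are not professional antigen-presenting cells but carry class I molecules and raise this path when exposed to interferon.

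Gene reads per library lay between 53433121 and 115526598. The quasi-likelihood test of edgeR was applied to the counts, with Benjamini-Hochberg adjustment across all genes tested. A gene was called where its adjusted p did not exceed 0.05 and its log2 fold change reached 1 in either direction. Expression is given as CPM, gene reads scaled to a common library total after correction of that total by the TMM factor of edgeR, and positions are those of GRCm38. Dnmt1 itself stood at 394, 379 and 324 CPM in control replicates 1 to 3 and at 49.7, 54.3 and 50.7 CPM in Dnmt1Δ/Δep replicates 1 to 3 (log2 fold change -2.83, SE 0.11). The keratinocyte markers Krt5, Krt14, Trp63, Itga6, Cdh1 and Dsg3 summed to between 28798 and 32500 CPM in control and between 21776 and 22545 CPM in Dnmt1Δ/Δep libraries, so that they were abundant in each library. The difference in the sum was mainly that of Krt5 and Krt14 (log2 fold changes -0.50 and -0.61, which passed the adjusted p but not the fold threshold), whereas Trp63, Cdh1, Dsg3 and Itga6 had log2 fold changes of -0.26, 0.00, 0.02 and 0.18 and did not pass it. In bulk RNA, fewer cells of a type and less RNA per cell cannot be told apart.

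Of the 10 genes, 8 were upregulated in Dnmt1Δ/Δep keratinocytes (Psmb8, Psmb9, Tap2, Tapbp, B2m, H2-K1, H2-D1 and Nlrc5), none was downregulated, and 2 (Psmb10 and Tap1) were not called. Over all genes tested, 6.03% were called upregulated and 0.392% downregulated. In 9 of the 10, every Dnmt1Δ/Δep library lay above every control library, as did 18.2% of all genes tested, and Psmb10 was the exception. In none of the 10 did every Dnmt1Δ/Δep library lie below every control library, as was the case for 11.7% of all genes. The adjusted p alone was passed by 9 of the 10 and by 9.36% of all genes. The median log2 fold change of the 10 genes was 1.99, against -0.00 over all genes. The genes were listed with results of this comparison known, so these counts describe them and carry no independent support. Each of the 10 had at least 28 counts in every library, and none entered the test through one group alone.

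**Figure D1:**
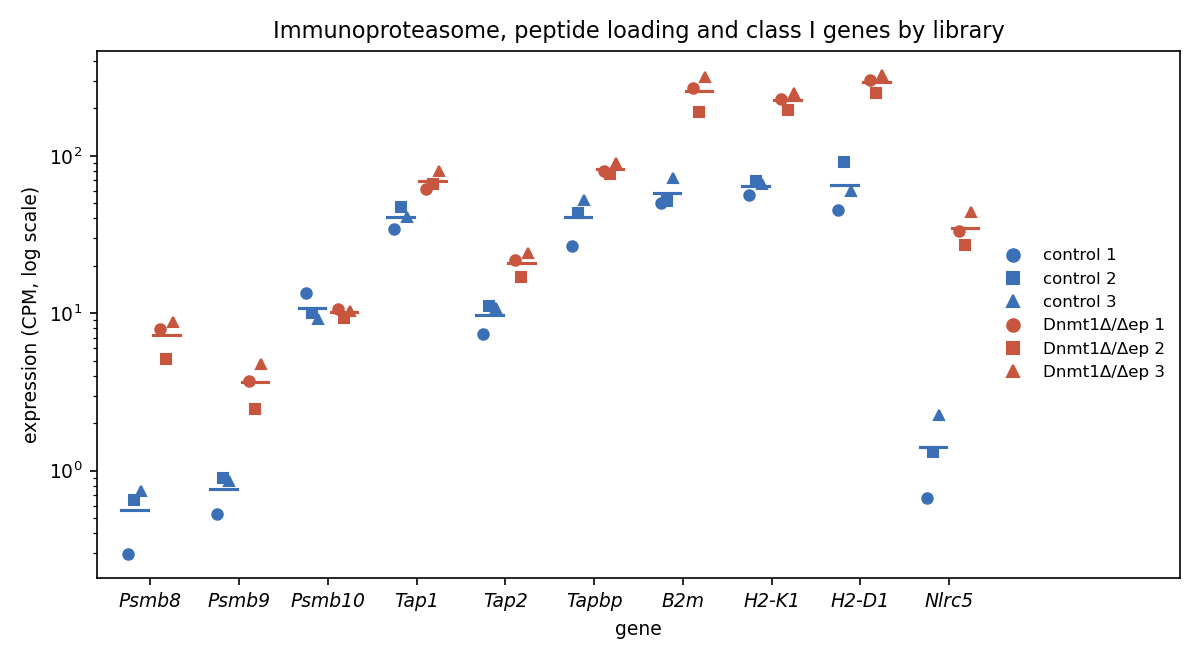
Expression of the 10 genes in CPM on a log scale, with control libraries in blue, Dnmt1Δ/Δep libraries in red, replicates 1, 2 and 3 as circle, square and triangle, and a bar at each group mean. The groups are apart for every gene except Psmb10, and the widest gap is that of Nlrc5, from at most 2.25 CPM in control to at least 27.2 CPM in Dnmt1Δ/Δep libraries.

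Nlrc5 had the largest fold change of the 10 genes. The gene (ENSMUSG00000074151) lies on chr8:94434356-94527272. Its level was 0.666, 1.31 and 2.25 CPM in control replicates 1, 2 and 3 (63, 128 and 121 reads) and 33.4, 27.2 and 43.7 CPM in Dnmt1Δ/Δep replicates 1, 2 and 3 (1990, 2351 and 5153 reads). The lowest Dnmt1Δ/Δep library was thus 12.1-fold above the highest control library. The log2 fold change was 4.65 (SE 0.44), a 25.2-fold rise, with an edgeR adjusted p of 0.0014. The control libraries also differed among themselves by more, relative to their level, than for any other member, with a mean of 1.41 ± 0.798 CPM (SD, n = 3).

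The 3 class I molecule genes rose by similar amounts. B2m, the light chain gene (ENSMUSG00000060802, chr2:122147686-122153083), was at 50.5, 51.6 and 72.0 CPM in control and at 268, 191 and 316 CPM in Dnmt1Δ/Δep replicates 1 to 3. H2-K1, a heavy chain gene (ENSMUSG00000061232, chr17:33996017-34000347), was at 56.5, 68.9 and 66.4 CPM in control and at 231, 195 and 252 CPM in Dnmt1Δ/Δep libraries. H2-D1, the other heavy chain gene (ENSMUSG00000073411, chr17:35262730-35267499), was at 45.4, 91.3 and 60.0 CPM in control and at 304, 252 and 327 CPM in Dnmt1Δ/Δep libraries. The lowest Dnmt1Δ/Δep library was 2.65-fold, 2.83-fold and 2.76-fold above the highest control library. The log2 fold changes were 2.15 (SE 0.22) for B2m, 1.82 (SE 0.13) for H2-K1 and 2.17 (SE 0.26) for H2-D1. Their edgeR adjusted p-values were 0.0018, 5.2e-04 and 0.0031. H2-K1 had the smallest standard error of the 10 genes, and H2-D1 had control replicate 2 above the other control libraries.

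Class I genes share sequence, which bears on how their reads can be assigned. Of the 50-base stretches of H2-K1 exons, 9.63% occurred in another gene, most often H2-Q10, and of those of H2-D1, 12.8%, most often H2-Q1. For 100-base stretches the shares were 0.957% and 3.59%. B2m and Psmb10 had no such 50-base stretch. The authors counted uniquely mapped reads, so that reads lying wholly in shared stretches were left out in both groups, and how many depends on the read length, which was not used here.

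Promoter sequences of B2m, H2-K1 and H2-D1 are shown because these 3 genes rose together and because a class I promoter has known elements. Windows from 250 bases before to 50 bases after the start were taken from RefSeq (GRCm38.p6) and matched 8 of the 10 genes, namely B2m, H2-D1, H2-K1, Psmb8, Psmb9, Psmb10, Tap1 and Tapbp. The motifs described here, looked for on both strands, were AANNGAAA (the core bound by interferon regulatory factors), the NF-kappaB element, CCAAT (the NF-Y element of the Y box) and TGACG (the CREB element of the X2 box). The 250 bases before the start of B2m (chr2:122147437-122147686, plus strand) and H2-K1 (chr17:34000348-34000597, minus strand, the more upstream of 2 starts) read 5′ to 3′ as follows, with capitals for these motifs.
B2m: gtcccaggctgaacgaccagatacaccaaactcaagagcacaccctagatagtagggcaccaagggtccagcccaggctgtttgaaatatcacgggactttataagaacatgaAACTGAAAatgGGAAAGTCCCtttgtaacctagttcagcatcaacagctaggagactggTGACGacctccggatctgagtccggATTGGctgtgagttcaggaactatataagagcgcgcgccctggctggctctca
H2-K1: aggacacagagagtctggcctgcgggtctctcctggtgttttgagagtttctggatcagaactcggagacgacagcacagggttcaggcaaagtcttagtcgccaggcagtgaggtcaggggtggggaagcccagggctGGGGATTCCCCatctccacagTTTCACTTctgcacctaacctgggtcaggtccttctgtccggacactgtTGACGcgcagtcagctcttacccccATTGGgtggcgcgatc

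Each of the windows of B2m, H2-K1 and H2-D1 held the IRF core, the NF-kappaB element, CCAAT and TGACG. The shares of all 32851 windows that held them were 23.9% for AANNGAAA, 8.46% for the NF-kappaB element, 37.4% for CCAAT and 20.8% for TGACG, and 36 windows (0.110%) held all 4. In both heavy chain genes the NF-kappaB element stood before the IRF core, written here on the opposite strand as TTTCACTT, whereas in B2m the IRF core came first. The stretches from one element to the other (chr17:34000430-34000458 minus strand, chr17:35262923-35262951 plus strand and chr2:122147550-122147570 plus strand) are set out to compare the 3 genes.
H2-K1: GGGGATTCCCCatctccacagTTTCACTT
H2-D1: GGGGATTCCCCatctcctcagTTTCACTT
B2m: AACTGAAAatgGGAAAGTCCC

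Nearer to the start, TGACG was followed by CCAAT on the opposite strand (ATTGG), and the stretch from one to the other was 30 bases long in all 3 genes. It lies at chr17:34000359-34000388 (minus strand), chr17:35262993-35263022 (plus strand) and chr2:122147609-122147638 (plus strand).
H2-K1: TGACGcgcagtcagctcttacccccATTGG
H2-D1: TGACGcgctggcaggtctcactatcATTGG
B2m: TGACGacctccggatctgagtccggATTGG

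The heavy chain genes were identical at 28 of 29 bases of the first stretch and at 23 of 30 bases of the second. H2-K1 and B2m were identical at 13 of the 30 bases of the second stretch, of which the marked motifs make up 10. A match is a description of letters, and binding at these places was not measured. CpG dinucleotides numbered 14 in the B2m window, 14 or 15 in the H2-K1 windows and 19 in the H2-D1 window, against a median of 7 over all windows with quartiles of 3 and 20.

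The immunoproteasome subunits did not move together. Psmb8 (ENSMUSG00000024338, chr17:34197721-34201454), which replaces Psmb5, was at 0.296, 0.646 and 0.745 CPM in control and at 7.95, 5.12 and 8.78 CPM in Dnmt1Δ/Δep replicates 1 to 3. Psmb9 (ENSMUSG00000096727, chr17:34181987-34187764), which replaces Psmb6, was at 0.529, 0.903 and 0.856 CPM in control and at 3.69, 2.47 and 4.75 CPM in Dnmt1Δ/Δep libraries. Psmb10 (ENSMUSG00000031897, chr8:105935735-105938444), which replaces Psmb7, was at 13.4, 9.98 and 9.14 CPM in control and at 10.6, 9.33 and 10.4 CPM in Dnmt1Δ/Δep libraries. The groups were apart for Psmb8 and Psmb9 and overlapped for Psmb10. The log2 fold change was 3.71 (SE 0.39) for Psmb8, 2.26 (SE 0.34) for Psmb9 and -0.10 (SE 0.18) for Psmb10. The edgeR adjusted p-values were 0.0020, 0.0077 and 0.81. In control cells Psmb10 was thus the most abundant of the 3, and the reads behind Psmb8 (28, 63 and 40) and Psmb9 (50, 88 and 46) were few.

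The constitutive subunits gave no call. Psmb5 averaged 34.0 ± 2.07 CPM in control libraries and 34.8 ± 2.83 CPM where Dnmt1 was deleted (SD, n = 3 each), a log2 fold change of 0.04 (SE 0.11, edgeR adjusted p 0.90). Psmb6 and Psmb7 had log2 fold changes of 0.02 (SE 0.13, edgeR adjusted p 0.96) and -0.12 (SE 0.23, edgeR adjusted p 0.84). Each inducible subunit was then set against the one it replaces within each library, per kilobase of exon, which needs no scaling between libraries. For every 100 of Psmb5 there were 0.242, 0.473 and 0.598 of Psmb8 in control and 6.22, 3.58 and 7.18 in Dnmt1Δ/Δep replicates 1 to 3, a 12.9-fold difference of the means. For every 100 of Psmb6 there were 0.141, 0.290 and 0.297 of Psmb9 in control and 0.996, 0.768 and 1.61 in Dnmt1Δ/Δep libraries, a 4.63-fold difference. For every 100 of Psmb7 there were 8.27, 9.88 and 9.29 of Psmb10 in control and 7.70, 9.11 and 11.3 in Dnmt1Δ/Δep libraries, a 1.02-fold difference with overlapping groups. The ratios depend on the exon length used (Psmb8 in Dnmt1Δ/Δep replicate 3 stood at 14.9 per 100 Psmb5 with the principal transcript and at 27.0 without division by length), but that length is the same in both groups and cancels from the fold.

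**Figure D2:**
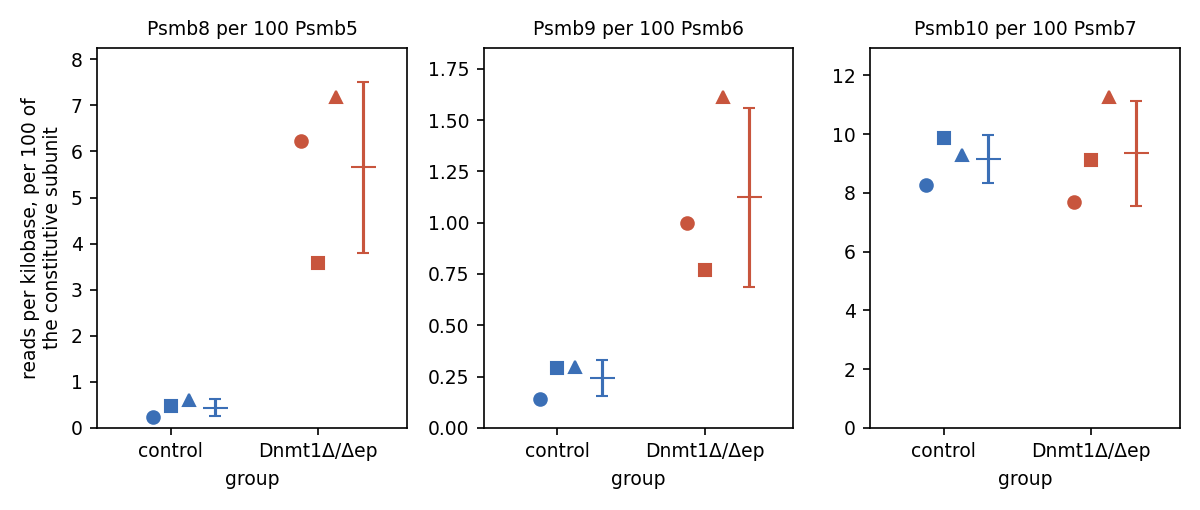
Reads per kilobase of each inducible subunit per 100 of the constitutive subunit it replaces, in each library (replicates 1, 2 and 3 as circle, square and triangle, control in blue, Dnmt1Δ/Δep in red), with the group mean and SD beside them on a linear axis from 0. The groups are apart for Psmb8 over Psmb5 and Psmb9 over Psmb6 and overlap for Psmb10 over Psmb7.

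The peptide loading genes showed smaller differences, close to the fold threshold. Tap1 (ENSMUSG00000037321, chr17:34187553-34197225) was at 34.1, 47.3 and 41.1 CPM in control and at 61.6, 65.9 and 79.6 CPM in Dnmt1Δ/Δep replicates 1 to 3. Tap2 (ENSMUSG00000024339, chr17:34203527-34216321) was at 7.43, 11.1 and 10.9 CPM in control and at 21.7, 17.1 and 24.0 CPM in Dnmt1Δ/Δep libraries. Tapbp (ENSMUSG00000024308, chr17:33915899-33929292) was at 26.7, 43.1 and 52.1 CPM in control and at 80.6, 76.7 and 90.2 CPM in Dnmt1Δ/Δep libraries. All Dnmt1Δ/Δep libraries lay above all control libraries for each of the 3 genes, and the lowest of them was 1.30-fold, 1.53-fold and 1.47-fold above the highest control library. The log2 fold changes were 0.76 (SE 0.15) for Tap1, 1.10 (SE 0.20) for Tap2 and 1.02 (SE 0.23) for Tapbp. Their edgeR adjusted p-values were 0.025, 0.018 and 0.035, so that Tap1 passed the adjusted p but not the fold threshold. That passing was not stable, as the edgeR adjusted p of Tap1 ranged from 0.030 to 0.084 over the 6 omissions of a library. The calls of Tap2 and Tapbp were not stable. Tap2 was not called when control replicate 1, control replicate 2, Dnmt1Δ/Δep replicate 1 or Dnmt1Δ/Δep replicate 3 was left out (log2 fold changes over the 6 omissions 0.93 to 1.20, edgeR adjusted p 0.016 to 0.071). Tapbp was called in only 1 of the 6 omissions, that of control replicate 3 (log2 fold changes over the 6 omissions 0.79 to 1.24, edgeR adjusted p 0.011 to 0.11).

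Other genes overlap these loci. Exons of another gene covered 29.0% of the exons of Tapbp, 18.5% of Tap2 and 14.7% of Psmb8, and whether the authors' counting used strand is not given in the sources used here. At Tapbp, Gm19412 on the opposite strand covered 24.9%. Zbtb22 on the same strand covered 4.11%, where strand cannot tell reads apart. The antisense genes Gm19412 at Tapbp, Gm15821 at Tap2 and Gm20496 at Psmb8 had at most 41, 25 and 5 counts in any library, and reads on bases shared by 2 genes were not counted in the union mode of the counter unless strand told them apart. Psmb9 and Tap1 also overlap, at 5.79% and 3.87% of their exons.

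Psmb9 and Tap1 are divergent neighbours whose RefSeq starts lie 226 bases apart. Their shared upstream region held 1 CCAAT and 1 TGACG, and neither window held the IRF core or the NF-kappaB element in the letters searched. The pair differed in the size of its change. For every 100 of Tap1, per kilobase of exon, there were 2.32, 2.86 and 3.12 of Psmb9 in control and 8.97, 5.62 and 8.93 in Dnmt1Δ/Δep replicates 1 to 3, so that the groups were apart. The window of Tapbp held CCAAT in 2 places. The windows of Psmb8, which rose, and of Psmb10, which was not called, held none of the motifs described above. CpG dinucleotides numbered 17 in the Psmb9 window, 15 in the Tap1 window, 11 in those of Psmb8 and Tapbp and 3 in that of Psmb10. Of the 10 genes, 7 lie on chromosome 17, where the mouse MHC is, 2 on chromosome 8 and 1 on chromosome 2.

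Per length, the order of the 10 genes differed between the groups at its lower end. In control cells B2m was highest at 67.5 ± 14.1 RPKM (SD, n = 3), where RPKM are CPM per kilobase of exon. It was followed by H2-D1 (25.4 RPKM), H2-K1 (21.8 RPKM), Tapbp (11.2 RPKM), Tap1 (7.45 RPKM), Psmb10 (6.36 RPKM) and Tap2 (2.59 RPKM). Psmb9 (0.208 RPKM), Psmb8 (0.166 RPKM) and Nlrc5 (0.166 RPKM) were lowest, and their ranges overlapped from one neighbour to the next, as did those of H2-D1 and H2-K1, of Tapbp and Tap1, and of Tap1 and Psmb10. In Dnmt1Δ/Δep cells the first 7 places were held by the same genes in the same order, from B2m at 300.1 ± 73.4 RPKM to Tap2 at 5.54 ± 0.933 RPKM. Nlrc5 (4.09 RPKM) came next, above Psmb8 (2.15 RPKM) and Psmb9 (0.995 RPKM), and these 3 were apart from each other. Psmb10 (5.93 RPKM) and Tap2 overlapped there, as did Tap2 and Nlrc5. These orders depend on the exon length used. With the principal transcript, H2-K1 averaged 134 per 100 of H2-D1 in control and 99.6 in Dnmt1Δ/Δep libraries, so that H2-K1 came before H2-D1 in control.

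The balance within the class I molecule and within the transporter was taken from ratios. For every 100 of H2-D1, per kilobase of exon, there were 109, 66.3 and 97.0 of H2-K1 in control and 66.7, 67.7 and 67.6 in Dnmt1Δ/Δep replicates 1 to 3, so that control replicate 2 lay just below the Dnmt1Δ/Δep libraries and the other control libraries above them. For every 100 of both heavy chains summed there were 148 ± 41.5 of B2m in the control group and 155 ± 18.9 in the Dnmt1Δ/Δep group (SD, n = 3 each), and the groups overlapped. The level of this ratio depends on the length used. Its control and Dnmt1Δ/Δep means were 98.0 and 106 with the principal transcript, and 46.2 and 49.1 without division by length. Tap1 stood at 290 ± 27.6 per 100 of Tap2 in control and at 230 ± 35.3 in Dnmt1Δ/Δep libraries, with overlap of the groups, and the ratio was lower in Dnmt1Δ/Δep in each of the 3 pairs of libraries of one number (316 and 196, 293 and 266, 261 and 229). This difference was not tested.

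The libraries of one group differed from each other in the same direction for most of these genes. Control replicate 1 was the lowest control library in 9 of the 10 genes, with Psmb10 as the exception. Dnmt1Δ/Δep replicate 2 was the lowest Dnmt1Δ/Δep library in 9 of the 10, with Tap1 as the exception, and Dnmt1Δ/Δep replicate 3 was the highest in 9. The deviation of control replicate 1 from its group mean was -0.89 on the log2 scale for Nlrc5 and -0.78 for Psmb8, and it was 0.33 for Psmb10. Replicates of one number share a flow cell lane according to the headers of the count table. Within each pair of libraries of one number, Dnmt1Δ/Δep was above control for 9 of the 10 genes, whereas Psmb10 differed by -0.34, -0.10 and 0.19 on the log2 scale in pairs 1, 2 and 3. Nlrc5 differed by 5.65, 4.37 and 4.28 on the log2 scale in the same pairs.

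**Figure D3:**
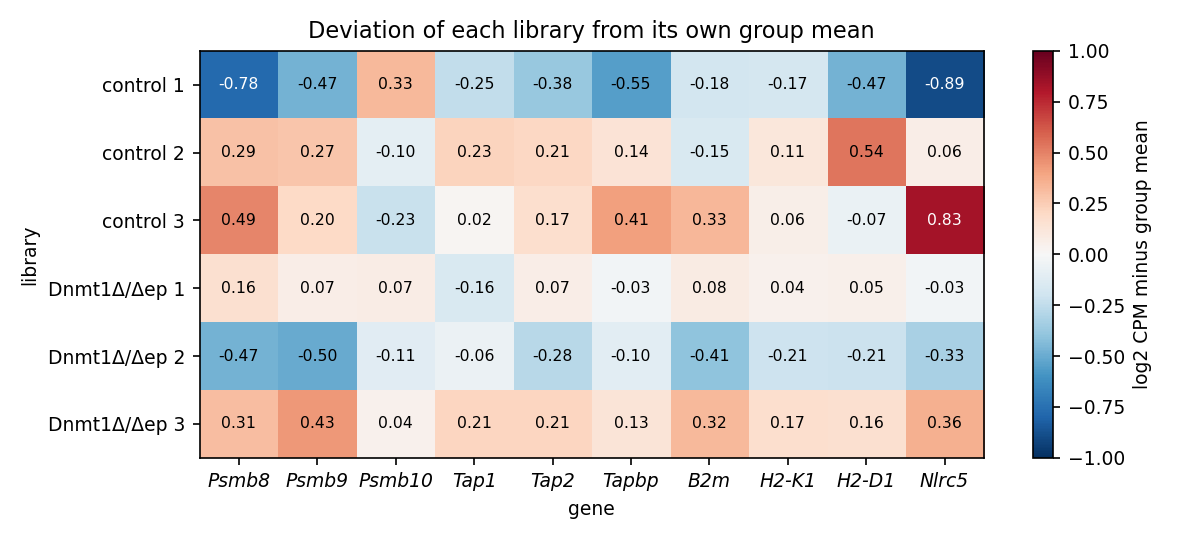
Deviation of each library from the mean of its own group in log2 CPM for the 10 genes, with libraries in rows and genes in columns, red above and blue below the group mean. Control replicate 1 is below its group mean for every gene except Psmb10, and Dnmt1Δ/Δep replicate 2 is below its group mean for all 10.

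Summed markers of other cells were apart between the groups for macrophages and dendritic cells and for melanocytes, and overlapped for lymphocytes, fibroblasts and endothelial cells. Macrophage and dendritic cell markers (8 genes, 2 tested and called upregulated, Csf1r and Itgam) summed to between 0.275 and 0.875 CPM in control and between 2.44 and 4.04 CPM in Dnmt1Δ/Δep libraries, with Adgre1 and Cd207 at 3 counts or fewer in every library. Ptprc, the gene of the common leukocyte antigen CD45, had 0, 0 and 2 counts in control and 12, 1 and 0 in Dnmt1Δ/Δep replicates 1 to 3. Lyz2 had 1, 0 and 1 counts in control and 6, 0 and 2 in Dnmt1Δ/Δep libraries. Flt3 had 0, 0 and 0 and then 6, 4 and 5 counts, and Itgax 0, 0 and 1 and then 2, 5 and 5. The sum thus rested mainly on Csf1r and Itgam. Control replicate 1 and Dnmt1Δ/Δep replicate 2 had the lowest sums of their groups, as for most of the 10 genes. Lymphocyte markers (7 genes, 6 in the table, none with enough counts to be tested) summed to between 0.0513 and 0.106 CPM in control and between 0.0347 and 0.436 CPM in Dnmt1Δ/Δep libraries. Of these, Cd3e, Cd3g, Ms4a1 and Nkg7 were at 3 counts or fewer in every library. The macrophage and dendritic cell sum and the lymphocyte sum stayed below the level of B2m, H2-K1 or H2-D1 in every library, whereas the macrophage and dendritic cell sum in Dnmt1Δ/Δep libraries was of the order of Psmb9 (2.47 to 4.75 CPM). Itgam shares exons with Gm49368, so that its reads are uncertain. Exons of Hmgxb3 on the opposite strand cover 15.1% of those of Csf1r. The part of macrophages, dendritic cells and lymphocytes in the differences was not tested. Melanocyte markers (5 genes, none called) summed to 148, 355 and 386 CPM in control and to 456, 562 and 599 CPM in Dnmt1Δ/Δep replicates 1 to 3, endothelial markers (4 genes, 2 called upregulated, Cdh5 and Pecam1) to between 4.39 and 16.8 CPM and between 14.1 and 22.4 CPM, and fibroblast markers (6 genes, none called) to between 12.2 and 28.0 CPM and up to 58.8 CPM, with Dnmt1Δ/Δep replicate 2 below every control library. Among the endothelial markers, every Dnmt1Δ/Δep library was above every control library for Pecam1, Cdh5 and Tie1, whereas Kdr, which made up 13.3 of the 16.8 CPM in control replicate 1, had a log2 fold change of -0.16. The melanocyte sum was above the level of B2m, H2-K1 or H2-D1 in every library, and control replicate 1 was the lowest library for it as well, and the part of these cells in the differences was not tested.

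Beyond the 10 genes, 80 further genes of the path were listed by function. Of these, 75 were tested, 1 was called upregulated and none was downregulated. Over all genes tested the shares called were 6.03% and 0.392%. The proteasome lists (20S core, 19S cap, activators and assembly) held 41 genes with no call in either direction, log2 fold changes from -0.28 to 0.18 and a median of -0.01. Psme1 and Psme2, which form the interferon-inducible activator of the proteasome, had log2 fold changes of -0.26 (SE 0.13, edgeR adjusted p 0.28) and -0.04 (SE 0.18, edgeR adjusted p 0.94). The chaperones and peptide editors of the endoplasmic reticulum (10 genes) gave no call, with log2 fold changes from -0.43 to 0.47 and a median of 0.20. Every Dnmt1Δ/Δep library was above every control library for 4 of them and below for 1 (Tapbpl, -0.43). Over all genes tested the shares were 18.2% above and 11.7% below. Hspa5, a general chaperone, passed the adjusted p but not the fold threshold (0.47, edgeR adjusted p 0.039). Both were named after their values were seen. Calr, a chaperone of the loading complex, had a log2 fold change of 0.33 (SE 0.15, edgeR adjusted p 0.23), and Erap1, which trims peptides, 0.32 (SE 0.18, edgeR adjusted p 0.33). The 7 cytosolic peptidases tested gave no call and lay between -0.11 and 0.16 on the log2 scale.

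**Figure D4:**
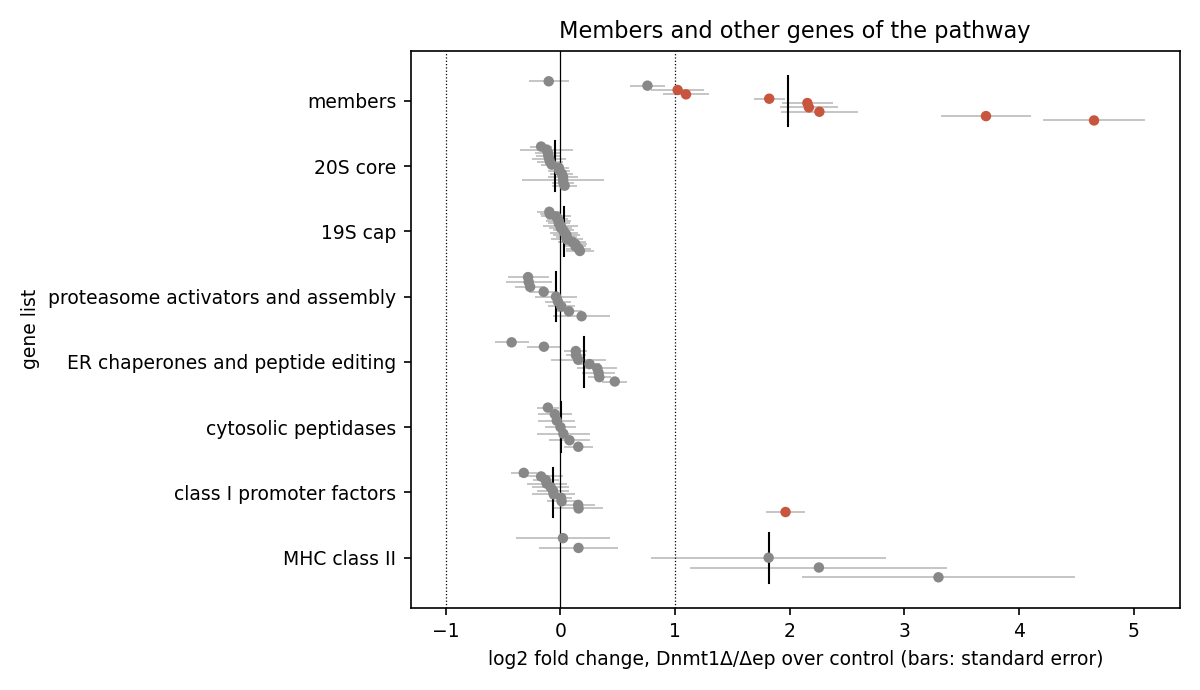
Log2 fold change of Dnmt1Δ/Δep over control with its standard error for the 10 genes (members) and 7 lists of other genes of the path, with called genes in red, other genes in grey, a black bar at each list's median and dotted lines at the fold threshold. Irf1 is the red point among the class I promoter factors, and the 41 genes of the proteasome lists lie between -0.28 and 0.18.

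Among 12 factors that bind class I promoters or drive them, Irf1 was the gene called. Irf1, an interferon-induced transcription factor, was at 4.25, 3.86 and 5.57 CPM in control and at 16.6, 18.3 and 18.4 CPM in Dnmt1Δ/Δep replicates 1 to 3, so that the groups were apart. Its log2 fold change was 1.96 (SE 0.17, edgeR adjusted p 0.0010). The genes of the RFX, NF-Y and CREB factors through which Nlrc5 acts (Rfx5, Rfxap, Rfxank, Nfya, Nfyb, Nfyc and Creb1) were not called. For Nfyb every Dnmt1Δ/Δep library lay below every control library (log2 fold change -0.32, edgeR adjusted p 0.14), as for 11.7% of all genes tested.

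The MHC class II list, which serves antigens taken up from outside and is driven by Ciita, gave no call among the 5 genes tested of 9, although all 5 had a fold change above 0. Their log2 fold changes lay between 0.02 and 3.30 with a median of 1.82, and every Dnmt1Δ/Δep library was above every control library for 3 of them, against 18.2% of all genes tested. Cd74 (0, 0 and 7 counts in control replicates 1 to 3) and H2-DMb1 (0, 26 and 0) passed the count filter through the Dnmt1Δ/Δep libraries. Their direction is therefore no support. Cd74, the invariant chain, was at 0, 0 and 0.130 CPM in control and at 0.487, 0.162 and 0.364 CPM in Dnmt1Δ/Δep replicates 1 to 3, where 3 counts correspond to 0.0254 to 0.0558 CPM, so that the groups were apart. Its log2 fold change was 3.30 (SE 1.19, edgeR adjusted p 0.14), and the gene was called without control replicate 3, the control library with reads of Cd74 (7.94, a fitted value that then depends on the prior count and is no bound). Ciita was at 0.0423 CPM or less in every library and was not tested. The class I transactivator Nlrc5 was at 27.2 CPM or more in every Dnmt1Δ/Δep library.

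Genes with a pattern like that of the 10 were sought among the 9302 other genes with a mean of at least 10 CPM. Over the 6 libraries, the log2 CPM of Ddr2, Tmc4, Epb41l4a, Adcy7 and Kdelr3 had the highest Pearson correlations with the mean pattern (0.998, 0.996, 0.994, 0.993 and 0.990). With only 6 libraries in 2 groups, these values mainly describe the step between the groups. After subtraction of the group means, a different set came first, Aebp1, Smyd4, Csad, Rbms3 and Atrn (0.993, 0.990, 0.981, 0.977 and 0.974). None of the genes in the second set was called, and their likeness to the 10 genes is that of the deviations within groups. These are the highest of 9302 values over only 6 libraries, so that high correlations can come from the selection itself. The likeness was not tested.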

How the data were processed

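Libraries were made from poly(A) RNA of keratinocyte cultures, 3 per genotype. The authors trimmed adapters, discarded ribosomal reads, aligned with STAR to GRCm38 (per the labels; the methods text names a human build) and counted uniquely mapped reads per gene with the union mode of htseq-count. The deposited values are raw counts, and 5 entries that name no gene (8.73% to 12.9% of counted reads) were left out. A table of repeat counts and the authors' tables of fold changes and p-values were not used. Symbols were matched for 42462 of 43629 identifiers (97.3%), and positions and exons came from GENCODE M21.

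Groups followed the labels. Counts were tested with edgeR 4.0.16 (R 4.3.3, quasi-likelihood test, TMM factors 0.980 to 1.02, filterByExpr with minimum counts of 10 and 15, no block), and scripts were tested on simulated data. A standard error is the fitted log2 fold change divided by the root of F. The floor for a gene without reads was set at 3 counts, a limit on counting error alone. Alternatives were DESeq2 1.42.0, upper-quartile factors, no filter, a mean of at least 1 RPKM in either group, a replicate block and omission of each library. Replicates of one number share a lane (header of the count table), and their deviations from the group means correlated at 0.43, 0.28 and 0.30 across genes, so the numbers pair the libraries, but the study's methods use no block. The culture time is 5 days in the labels, and a legend of the study gives another.

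The 10 genes and all lists were chosen with earlier results of these data known. All 10 are named, and of the other lists Psmb5, Psmb6, Psmb7, Psme1, Psme2, Erap1, Calr, Irf1, Ciita, Cd74 and any called gene, with the 5 genes most like the mean pattern before and after subtraction of group means. A further gene of those lists and a further promoter motif that was searched are not reported here. Hspa5, Tapbpl, H2-DMb1 and the RFX, NF-Y and CREB genes were named outside this rule. Markers Csf1r, Itgam, Cdh5 and Pecam1 are named because they were called, Kdr and Tie1 for their direction, and Ptprc, Lyz2, Flt3 and Itgax for their low counts. Antisense genes and Zbtb22 are named because they overlap a member, and Hmgxb3 because it overlaps Csf1r. Python 3.11.15, pandas 2.3.3 and matplotlib 3.10.9 were used for tables and figures.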

Additional observations from a re-analysis of the deposited data

How the results depend on the processing

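Psmb8, B2m, H2-K1, H2-D1, Nlrc5 and Irf1 were called upregulated under all 11 alternatives, and Psmb9 under the 10 in which it was tested, since it fell below the RPKM filter. Psmb8 and Nlrc5 passed the RPKM filter through the Dnmt1Δ/Δep group alone, so that their calls there are no support. Of the 10 genes, 8 were called with upper-quartile factors, 7 with DESeq2, 7 without a filter, 6 with the RPKM filter and 6 to 8 when 1 library was left out, and their median log2 fold change stayed between 1.83 and 2.04. Tapbp lost its call with DESeq2 (0.99), without a filter (0.98) and with the RPKM filter (edgeR adjusted p 0.052), and Tap2 and Tapbp lost theirs in the omissions given above. With the replicate block, 8 of the 10 genes were called with a median log2 fold change of 1.98, and 1 gene of the other lists (Irf1), so that the block changed no call. The number of called genes in the other lists was 2 without a filter (Irf1 and H2-Aa) and 1 to 3 when 1 library was left out, with Irf1, H2-Eb1 and H2-DMb1 called without control replicate 2 and Irf1 and Cd74 without control replicate 3. Uncalled genes turned sign near 0, Psmb6 with DESeq2 (-0.0082) and without a filter (-0.017), and, over the omissions of 1 library, Psmb10 (-0.21 to 0.077), Psmb5 (-0.083 to 0.086), Psmb6 (-0.071 to 0.14), Psmb7 (-0.31 to 0.15) and Psme2 (-0.20 to 0.086).

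The level of a subunit ratio, but not its fold between groups, moved with the length used. Without division by length, Psmb8 stood at 1.65 per 100 Psmb5 in control and 21.3 in Dnmt1Δ/Δep libraries, Psmb9 at 0.475 and 2.20 per 100 Psmb6, and Psmb10 at 4.56 and 4.66 per 100 Psmb7. With the length of the principal transcript, chosen after seeing the data, Psmb8 stood at 0.909 and 11.8 and Psmb10 at 4.03 and 4.13. Over all genes, 1014 were called upregulated and 66 downregulated, against 1284 and 116 with DESeq2, 1294 and 107 without a filter, 394 and 35 with the RPKM filter, 1173 and 95 with the replicate block, and 559 to 1183 and 15 to 180 when 1 library was left out. The cause of these shifts was not tested. Depth limits the control values of Psmb8 and Psmb9, which rest on at most 88 reads.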
